A study of Mus musculus with 4 samples.

Results

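The C-type lectin receptors Clec4e (Mincle), Clec4d (MCL), Clec4n (Dectin-2), Clec4a1, Clec4a2, Clec4a3 (members of the DCIR family) and Clec5a (MDL-1) were followed in mouse peritoneal macrophages with and without IL-4 and with and without Trim24, also called TIF1a. These 7 genes of 16403 listed in any library were found by their NCBI gene IDs, and all 7 passed the minimum of a mean of 10 reads over the libraries. They were chosen by their gene family, but with earlier results of these data in view: Clec4d and Clec4e were selected on their low transcript levels after IL-4, so every comparison of IL-4 with no treatment is given here as a description, without a test. C57BL/6 mice, aged 6 to 8 weeks by the study's methods, were either wild-type or lacked TIF1a in myeloid cells (Trim24 flox/flox crossed to LysM-Cre, labelled TIF1a-/-), the Cre being driven by the lysozyme M promoter. The methods name wild-type littermates as controls, and whether these carried floxed alleles or Cre is not given in the sources used here, nor is whether animals were pooled. All mice received 4% thioglycolate, their peritoneal macrophages were collected after 4 days, adhered for 4 h, were kept in 0.5% serum and were then left untreated or given IL-4 at 20 ng/mL for 6 h. Each of the 4 combinations of genotype and treatment is 1 library, so no difference has a replicate check, and a test on reads compares libraries and not conditions.

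C-type lectin receptors are surface proteins with which myeloid cells sense sugars and glycolipids of microbes and of damaged cells. Mincle binds the mycobacterial cord factor, and MCL, encoded beside it, pairs with it and helps to bring it to the surface. Both, like Dectin-2, which binds fungal mannans, signal through the adaptor FcRγ (Fcer1g) to the kinase Syk and the scaffold Card9, and this route ends in inflammatory cytokine genes. The DCIR receptors lie in the same cluster, and Clec4a2 (DCIR1) carries an inhibitory motif that recruits phosphatases such as SHP-1 (Ptpn6). Clec5a lies elsewhere on the chromosome and signals through the adaptor DAP12 (Tyrobp).

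Of the 7 genes, 6 lie in 1 cluster on mouse chromosome 6 (GRCm38.p6), which runs from 122921848, the start of Clec4a1, to 123289871, the end of Clec4e, and covers 368 kb. In chromosomal order the coding genes are Clec4a1, Clec4a3, Clec4a4, Clec4b1, Clec4a2, Clec4b2, Clec4n, Clec4d and Clec4e. Clec4d (123262107 to 123275268, plus strand) and Clec4e (123281789 to 123289871, minus strand) are neighbours that are transcribed toward each other. Clec5a lies apart at 40574898 to 40585805. A promoter of RefSeq (GRCm38.p6), from 250 bases before to 50 after the start of transcription, was on hand for 6 of the 7 genes, Clec4n being the exception. The 250 bases before the start are shown for the neighbours Clec4e and Clec4d, which were low after IL-4, and for Clec4a3, which was high, read 5′ to 3′ along each gene's own strand. Capitals mark matches to the letters of the STAT, NF-kB, AP-1 or C/EBP motifs searched.
Clec4e (minus strand, chr6:123289872-123290121): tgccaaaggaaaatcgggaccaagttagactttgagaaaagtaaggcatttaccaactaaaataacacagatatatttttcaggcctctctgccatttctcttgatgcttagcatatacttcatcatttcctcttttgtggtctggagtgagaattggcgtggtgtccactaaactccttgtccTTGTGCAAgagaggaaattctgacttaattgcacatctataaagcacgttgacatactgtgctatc
Clec4d (plus strand, chr6:123261857-123262106): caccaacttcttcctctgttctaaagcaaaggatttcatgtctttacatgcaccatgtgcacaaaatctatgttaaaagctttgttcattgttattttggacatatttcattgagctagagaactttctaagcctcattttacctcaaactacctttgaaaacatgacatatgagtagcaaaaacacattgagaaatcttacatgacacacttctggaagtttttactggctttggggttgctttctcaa
Clec4a3 (plus strand, the first of the gene's 2 starts, chr6:122952265-122952514): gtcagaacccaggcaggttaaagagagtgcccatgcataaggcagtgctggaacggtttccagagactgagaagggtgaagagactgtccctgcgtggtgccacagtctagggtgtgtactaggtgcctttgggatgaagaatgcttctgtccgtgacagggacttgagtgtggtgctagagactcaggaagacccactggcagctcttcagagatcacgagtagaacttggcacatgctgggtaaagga

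STAT6, the transcription factor that IL-4 activates, is known to bind palindromes of the form TTCNNNNGAA, and other STAT proteins TTCNNNGAA. These letters, the NF-kB letters GGGNNNNNCC, the AP-1 letters TGANTCA and the C/EBP letters TTGCNNAA were searched on both strands of the whole windows, where N is any base. The Clec4e window held 1 match, to C/EBP on the minus strand of the window, at -66 to -59 with the start of transcription as 0. No match to these 5 patterns was found in the windows of Clec4d or Clec4a3. The STAT letters with 4 free bases were found once in Clec4a1 (-244 to -235) and once in Clec5a (-98 to -89), and those with 3 free bases once in Clec4a2 (-42 to -34). Clec4a1 also held the NF-kB letters and Clec4a2 the AP-1 letters. Of all 32851 promoters in the table, 6.95% held the STAT letters with 4 free bases and 8.30% those with 3, 50.8% held the NF-kB letters, 7.81% the AP-1 letters and 10.8% the C/EBP letters. The core GGAA of ETS factors such as PU.1 was found in all 7 windows of the 6 genes, as in 96% of all promoters. A match is only a match of letters, and its absence says only that these letters are not in this window.

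The libraries held 11026033 to 11250099 expected reads, the RSEM estimate of the reads that belong to each gene, and 3 reads, taken as the floor, are worth 0.267 to 0.272 CPM (reads scaled by the library total). Levels are given as FPKM, which are reads scaled by the library total and by transcript length. All intervals cover counting error only. The genotype was checked on Trim24, whose level was 2.55 FPKM (untreated) and 1.48 FPKM (IL-4) in wild-type cells, against 0.06 and 0.14 FPKM in knockout cells. The macrophage markers Cd68 (3005 to 3465 FPKM) and Adgre1 (68.5 to 97.7 FPKM) were high in every library. Markers of other cells that carry these lectins were scarce: of 10 neutrophil genes 6 (Ly6g, S100a9, Retnlg, Camp, Ngp and Stfa2l1) were listed in no library, and the rest summed to 14.1 FPKM in untreated and 9.49 FPKM in IL-4-treated wild-type cells, and to 10.4 and 12.7 FPKM in knockout cells. The 4 monocyte genes summed to 0.98 to 1.75 FPKM and the 7 dendritic cell genes to 2.75 to 2.91 FPKM. Lyz2, whose promoter drives the Cre, was listed at 11289 and 10811 FPKM in wild-type cells and at 5193 and 4761 FPKM in knockout cells.

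Untreated wild-type macrophages carried mostly Clec4d and Clec4e transcripts. FPKM values, which are per length and can be set side by side between genes, were 286.7 for Clec4d, 89.0 for Clec4e, 39.7 for Clec4a3, 22.4 for Clec4a1, 5.37 for Clec4a2, 4.44 for Clec5a and 2.81 for Clec4n. In this order only Clec4a2 and Clec5a did not differ beyond counting error. By mean level over the 4 libraries Clec4d stood at percentile 96 of the 11664 genes tested, Clec4a3 at 90.4, Clec4e at 85.8 and Clec4a1 at 76.2, whereas Clec4n stood at 12.9. The Clec4n values rest on only 35, 4, 15 and 8 reads (wild-type untreated and IL-4, knockout untreated and IL-4).

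**Figure D1:**
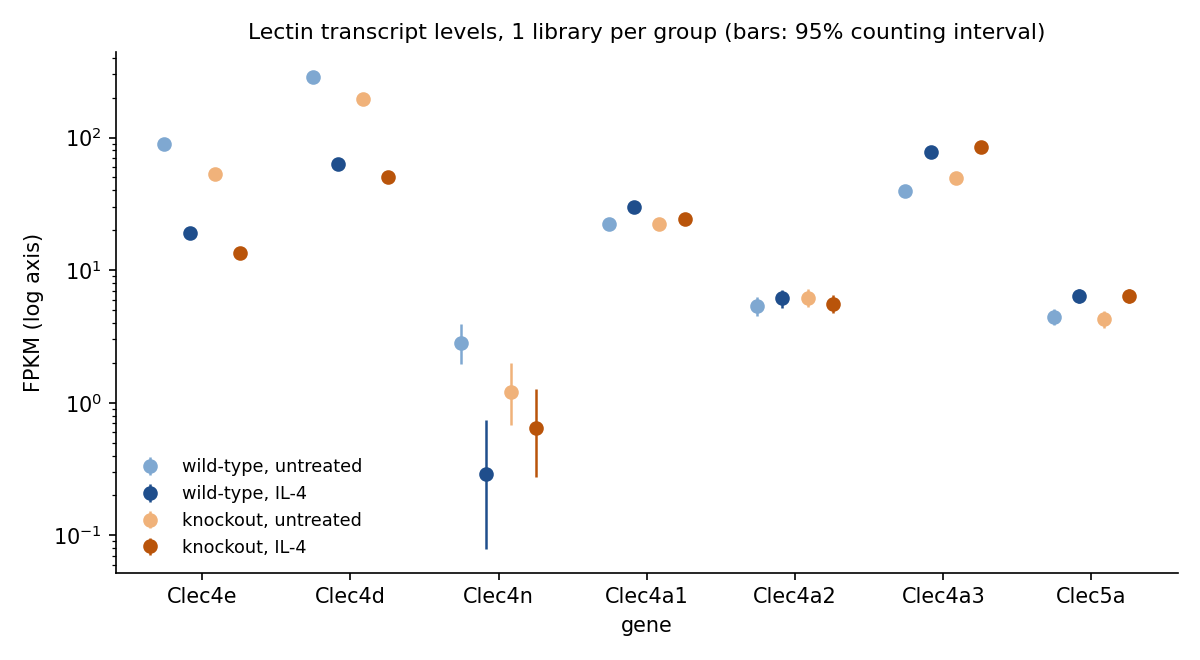
FPKM of the 7 lectin genes (log axis) in the 4 libraries, each point being 1 library and each bar its exact Poisson 95% interval from the reads. Clec4e and Clec4d are lower in both IL-4 libraries than in both untreated ones, Clec4a3 is higher, and Clec4n, with at most 35 reads, has the widest bars.

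With IL-4 the neighbours Clec4e and Clec4d were low in both genotypes. Clec4e was listed at 89.0 FPKM in untreated and 19.2 FPKM in IL-4-treated wild-type macrophages, and at 52.7 and 13.5 FPKM in knockout cells. Where values follow in pairs, the untreated library comes before the IL-4 library. The Clec4e values rest on 2484, 545, 1468 and 377 reads. The log2 ratio of IL-4 to untreated, here and below the difference of log2(FPKM + 0.1), was -2.21 in wild-type cells (95% counting interval of the CPM ratio, -2.35 to -2.08) and -1.95 in knockout cells (-2.13 to -1.80), so that the untreated level was 4.63 and 3.87 times the treated one. Both treated libraries lay below both untreated libraries.

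Clec4d, whose product pairs with Mincle, was listed at 286.7 and 63.2 FPKM in wild-type cells and at 194.6 and 50.8 FPKM in knockout cells. Its log2 ratios were -2.18 (-2.28 to -2.08) and -1.93 (-2.06 to -1.82). From the lowest ratio upward, Clec4e and Clec4d held places 18 and 20 of 11664 genes in wild-type cells and 27 and 29 in knockout cells. Dectin-2 (Clec4n) was listed at 2.81 and 0.29 FPKM in wild-type cells and 1.21 and 0.64 FPKM in knockout cells. Its log2 ratio was -2.90 in wild-type cells (-5.11 to -1.67 on the CPM scale) and -0.82 in knockout cells (-2.35 to 0.42), where the interval includes no change.

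The DCIR genes of the same cluster did not share this pattern. Clec4a3 was listed at 39.7 FPKM without and 78.1 FPKM with IL-4 in wild-type cells, and at 49.3 and 85.1 FPKM in knockout cells, on 569, 1141, 715 and 1226 reads. Its log2 ratio was 0.97 (0.83 to 1.12) in wild-type cells and 0.79 (0.64 to 0.91) in knockout cells, and both treated libraries lay above both untreated ones. Clec4a1 was listed at 22.4 and 29.8 FPKM in wild-type cells and at 22.2 and 24.2 FPKM in knockout cells. Its log2 ratios were 0.41 (0.23 to 0.61) and 0.12 (-0.08 to 0.32), the latter within counting error. Clec4a2, the receptor with the inhibitory motif, stayed between 5.37 and 6.16 FPKM in all 4 libraries, with log2 ratios of 0.19 (-0.15 to 0.51) and -0.14 (-0.46 to 0.19). Its expected reads were not whole (146.78 in untreated wild-type cells), and most of those of its neighbours Clec4a4 and Clec4b1, with at most 9 reads in any library, were not whole either, as RSEM gives where reads match more than 1 transcript. Clec4b2 was listed in no library.

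Clec5a, outside the cluster, was listed at 4.44 and 6.43 FPKM in wild-type cells and at 4.25 and 6.37 FPKM in knockout cells. Its log2 ratios of 0.52 (0.25 to 0.80) and 0.57 (0.30 to 0.86) were under 1.5-fold in both genotypes, but the wild-type ratio was 0.61, past that fold, with the trend over transcript length removed.

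**Figure D2:**
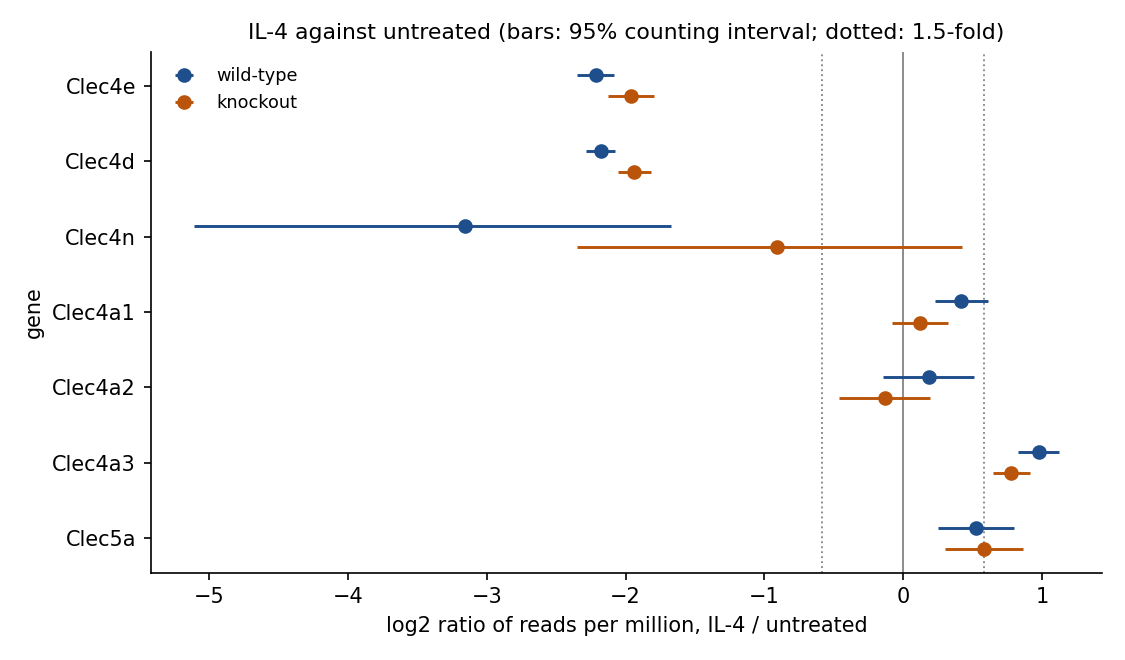
Log2 ratio of CPM, IL-4 over untreated, for each lectin gene in wild-type cells (blue) and in knockout cells (orange). Bars are exact 95% counting intervals, the solid line marks no difference and the dotted lines 1.5-fold; Clec4e and Clec4d lie near -2 in both genotypes, Clec4a3 lies past 1.5-fold on the other side, the Clec5a point of knockout cells lies at the dotted line, and the Clec4n interval of knockout cells crosses 0.

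Past 1.5-fold, 3 of the 7 genes were lower (Clec4e, Clec4d and Clec4n) and 1 was higher (Clec4a3) with IL-4, in wild-type and knockout cells alike. Of all 11664 genes, 12.2% were lower and 7.32% higher past this fold in wild-type cells, and 7.33% lower and 8.05% higher in knockout cells. Since this contrast chose the genes, nothing is read from the comparison of these shares. Over the 7 genes the log2 ratios had a median of 0.19 in wild-type cells and -0.14 in knockout cells, against -0.02 and 0.0051 over all genes. At a pseudocount of 1 instead of 0.1, Clec4n was under 1.5-fold in knockout cells. The IL-4 ratios of all genes were tied to transcript length, with Spearman's rho of -0.372 in wild-type and -0.109 in knockout cells (10443 genes). With that trend removed, the wild-type log2 ratios were -2.25 for Clec4e, -2.31 for Clec4d, -3.04 for Clec4n and 0.84 for Clec4a3. Those of Clec4a1 and Clec4a2 were 0.31 and 0.15. Past 1.5-fold, 1043 genes were then lower and 904 higher in wild-type cells, against 1423 and 854 with the trend kept. RNA of whole cultures was measured, so fewer cells with a transcript and less of it per cell cannot be told apart. The summed neutrophil markers went from 14.1 to 9.49 FPKM with IL-4 in wild-type cells and from 10.4 to 12.7 FPKM in knockout cells. The largest part was S100a8, at 8.76 and 5.15 FPKM in wild-type cells (35 and 21 reads) and 5.26 and 7.52 FPKM in knockout cells (21 and 30 reads). Cxcr2 was at 2.49 and 2.43 FPKM and at 3.07 and 3.10 FPKM. The part of these markers in the lectin levels was not tested.

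**Figure D3:**
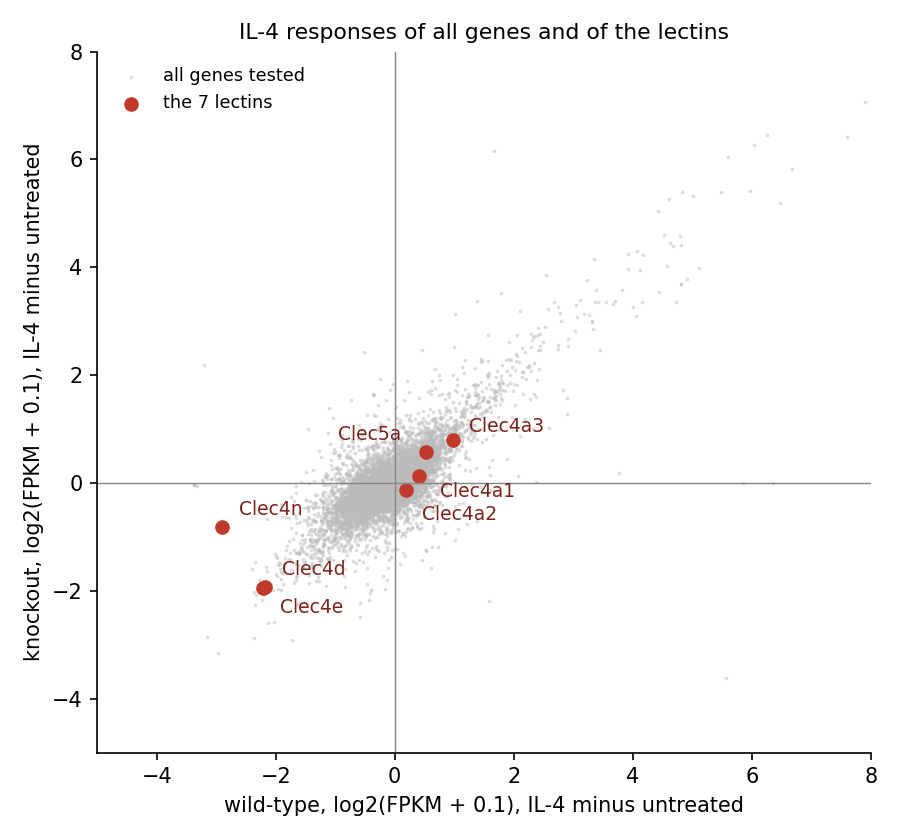
Log2 difference of FPKM + 0.1 between IL-4 and untreated in wild-type cells (x axis) and in knockout cells (y axis). Grey points are the 11664 genes tested, of which 2 fall outside the axes, and red points the 7 lectins; Clec4d and Clec4e lie together near the low end of both axes and Clec4a3 lies at 0.97 and 0.79.

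The make-up of the lectin transcripts therefore differed between untreated and treated cells. The summed level of the 7 genes was 450 FPKM without and 203 FPKM with IL-4 in wild-type cells, and 330 and 186 FPKM in knockout cells. Clec4d and Clec4e made up 63.6% and 19.8% of this sum in untreated wild-type cells, and 31.1% and 9.43% after IL-4. Clec4a3 made up 8.82% without and 38.5% with IL-4 in wild-type cells, and 14.9% and 45.7% in knockout cells. With IL-4, Clec4a3 was the highest of the 7 genes in both genotypes and Clec4e the fourth.

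**Figure D4:**
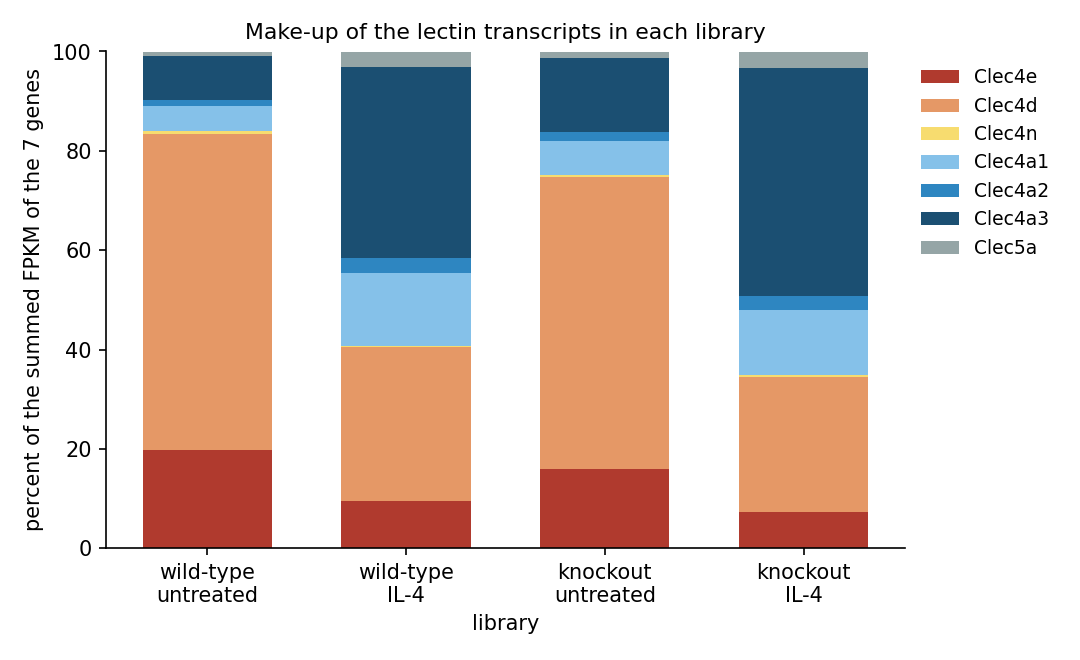
Share of each gene in the summed FPKM of the 7 lectin genes in each library (stacked bars, percent). The red and orange parts, Clec4e and Clec4d, shrink from 19.8% and 63.6% in untreated wild-type cells to 9.43% and 31.1% with IL-4, and the dark blue part, Clec4a3, grows from 8.82% to 38.5%.

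Within a library the levels of the neighbours kept a narrow ratio. There were 3.22 Clec4d per Clec4e by FPKM in untreated wild-type macrophages (95% counting interval, 3.06 to 3.39) and 3.30 (2.97 to 3.67) with IL-4. In the knockout the ratio was 3.69 (3.47 to 3.94) and 3.76 (3.31 to 4.26). The ratio was thus higher in untreated knockout cells than in untreated wild-type cells beyond counting error, and in the treated pair the intervals overlapped. The transcripts have 1336 (Clec4d) and 2519 bases (Clec4e), and the trend over transcript length between libraries was not removed from these ratios. The ratio of Clec4a3 to Clec4e, by contrast, was 0.45 without and 4.08 with IL-4 in wild-type cells, and 0.94 and 6.29 in knockout cells.

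The genes with the level pattern most like that of Clec4e and Clec4d were sought among 7451 other genes whose mean level reached 5 FPKM. The measure was the root mean square difference of log2(FPKM + 0.1) over the 4 libraries, each gene being centred on its own mean. Between Clec4e and Clec4d it was 0.096. Nearest to Clec4d were Cd24a (0.12), Tlr13 (0.20), Tlr2 (0.23), Ampd3 (0.26) and Marchf9 (0.27), and nearest to Clec4e were Cd24a (0.20), Tlr13 (0.29), Tlr2 (0.32), Nt5dc2 (0.32) and Ampd3 (0.34). Cd24a, a small surface glycoprotein, was listed at 31.6 and 8 FPKM in wild-type cells and 26.3 and 6.63 FPKM in knockout cells. Tlr13, a receptor for bacterial ribosomal RNA, was listed at 93.0 and 22.4 FPKM in wild-type cells and 87.5 and 21.9 FPKM in knockout cells. Tlr2, a receptor for bacterial lipoproteins, was listed at 19.1 and 4.70 FPKM, and at 16.7 and 5.12 FPKM. No correlation was computed over 4 libraries.

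To ask if loss of Trim24 is accompanied by other levels of these lectins, the knockout and wild-type libraries were compared separately without and with IL-4, in pairs that share no library. The wild-type libraries also enter the IL-4 ratio on which Clec4d and Clec4e were selected. A high untreated wild-type level favours that selection and also favours a lower knockout ratio in the untreated pair. A low treated wild-type level favours the selection and a higher knockout ratio in the treated pair. The genotype tests of these 2 genes, here and in the additive fit, are thus a description, and nothing is read from the counts called. Clec4e was lower in knockout cells in both pairs. Without IL-4 it was listed at 89.0 FPKM in wild-type cells and 52.7 FPKM in knockout cells, a log2 ratio of -0.76 ± 0.05 (SE, counting error), 1.69 times lower (two-sided Fisher's exact test with Benjamini-Hochberg adjustment over 11664 genes, adjusted p = 1.3e-56). It was the 1 gene of the 7 that was called, which needed an adjusted p under 0.05 and a fold over 1.5. Of all genes 1.12% were called lower and 1.08% higher in this pair. With IL-4, Clec4e was at 19.2 and 13.5 FPKM, a log2 ratio of -0.50 ± 0.10 (Fisher's exact test, adjusted p = 2.2e-06), which is under 1.5-fold.

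Clec4d was also lower in knockout cells in both pairs, under 1.5-fold in each. Without IL-4 it was at 286.7 FPKM in wild-type cells and 194.6 FPKM in knockout cells, a log2 ratio of -0.56 ± 0.04 (Fisher's exact test, adjusted p = 7.5e-56) or 1.47 times lower. With IL-4 it was at 63.2 and 50.8 FPKM, a log2 ratio of -0.31 ± 0.07 (Fisher's exact test, adjusted p = 7.2e-05). In this treated pair the log2 ratios of all genes were tied to transcript length (Spearman's rho of 0.518 across 10443 genes, which are not independent replicates), and with that trend removed Clec4d, of 1336 bases, was at -0.18 (exact binomial test, adjusted p = 0.058) and Clec4e, of 2519 bases, at -0.47 (adjusted p = 1.9e-05). Clec4n had 35 and 15 reads without IL-4, a log2 ratio of -1.15 ± 0.44 (Fisher's exact test, adjusted p = 0.062). With IL-4 it had 4 and 8 reads, too few to tell the genotypes apart (log2 ratio of 0.92 ± 0.84, Fisher's exact test, adjusted p = 0.45).

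The DCIR genes and Clec5a were under 1.5-fold in both genotype pairs. Clec4a3 was higher in knockout cells, with a log2 ratio of 0.31 ± 0.08 without IL-4 (Fisher's exact test, adjusted p = 0.0011) and of 0.12 ± 0.06 with IL-4 (adjusted p = 0.083), under 1.5-fold in both. With the length trend removed the treated pair gave 0.26 for Clec4a3 (exact binomial test, adjusted p = 0.00014). Clec4a1 had a log2 ratio of -0.01 ± 0.10 without IL-4 (adjusted p = 1) and of -0.30 ± 0.09 with IL-4 (adjusted p = 0.0064), the latter -0.20 (adjusted p = 0.13) with the length trend removed. For Clec4a2 (0.19 ± 0.16 and -0.13 ± 0.16) and Clec5a (-0.06 ± 0.15 and -0.01 ± 0.12) no difference was detectable at this depth, with adjusted p of 0.58 or more by Fisher's exact test. The 95% counting intervals of the Clec5a ratio ran from -0.37 to 0.23 and from -0.26 to 0.23. With IL-4 none of the 7 genes was called in the Fisher's exact tests, where 0.952% of all genes were called lower and 4% higher. An unadjusted p under 0.05 was seen for 4 of the 7. The share of all genes under that unadjusted p was not counted, so nothing is read from the 4.

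**Figure D5:**
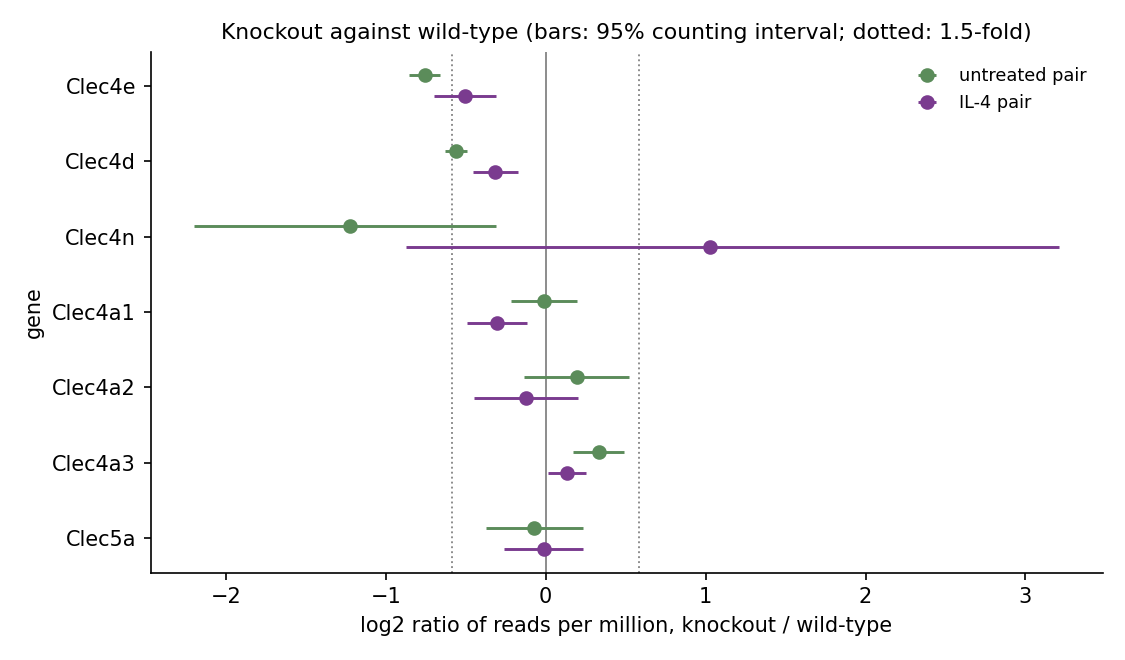
Log2 ratio of CPM, knockout over wild-type, for each lectin gene in the untreated pair (green) and in the IL-4 pair (purple). Bars are exact 95% counting intervals, the solid line marks no difference and the dotted lines 1.5-fold; Clec4e and Clec4d lie below 0 in both pairs, and Clec4e of the untreated pair, at -0.76, lies past the dotted line.

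These tests measure counting error alone. When a biological coefficient of variation of 0.2 or 0.4 between libraries was assumed, Clec4e of the untreated pair was no longer called (edgeR's exact test, adjusted p = 1). In an additive fit of genotype and treatment over all 4 libraries, which has 1 residual degree of freedom and takes libraries of 1 genotype as repeats, the genotype effect was -0.65 for Clec4e (edgeR's quasi-likelihood test, adjusted p = 0.0033) and -0.45 for Clec4d (adjusted p = 0.026) on the log2 scale. These 2 of the 7 genes were called, against 0.373% of 11791 genes called lower and 1.29% called higher. The fit assumes that the genotype effect is the same with and without IL-4. Without and with IL-4, the pairwise log2 ratios were -0.76 and -0.50 for Clec4e and -0.56 and -0.31 for Clec4d. Without the filter on low counts neither was called (adjusted p of 0.19 and 0.35), and in DESeq2 Clec4d was not (adjusted p = 0.10). The summed neutrophil markers were lower in knockout cells without IL-4 (14.1 against 10.4 FPKM) and higher with IL-4 (9.49 against 12.7 FPKM). Its members disagreed without IL-4. S100a8 (8.76 against 5.26 FPKM, on 35 and 21 reads) and Mmp8 (2.73 against 1.70 FPKM) were lower in knockout cells. Cxcr2 (2.49 against 3.07 FPKM) and Ltf (0.07 against 0.36 FPKM) were higher. The 6 mesothelial and fibroblast genes summed to 34.2 FPKM in wild-type and 16.9 FPKM in knockout cells without IL-4, and to 29.1 and 30.6 FPKM with IL-4. The part of either list in these differences was not tested.

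The IL-4 responses of the genotypes were then set side by side for each gene. The response is the measure on which Clec4d and Clec4e were selected, so these differences are a description, with no p, and nothing is read from the count. Past the thresholds of an exact conditional test on the reads of all 4 libraries (adjusted p under 0.05, over 1.5-fold) were 0 of the 7 genes, against 2.69% of the 11664 genes. For Clec4d the log2 response was -2.18 in wild-type cells and -1.93 in knockout cells, a difference of 0.25 (95% counting interval by normal approximation, 0.09 to 0.40). For Clec4e the difference was 0.26 (0.05 to 0.47), and for Clec4n it was 2.08 (0.22 to 3.94), on few reads. For Clec4a3 the difference was -0.19 (-0.38 to 0.0097), for Clec4a1 -0.29 (-0.57 to -0.02), for Clec4a2 -0.33 (-0.77 to 0.12) and for Clec5a 0.05 (-0.33 to 0.43). With the trend over transcript length removed, the differences were 0.34 for Clec4d, 0.27 for Clec4e, 2.19 for Clec4n and -0.09 for Clec4a3. Those of Clec4a1, Clec4a2 and Clec5a were then -0.23, -0.31 and -0.03. No intervals were computed for the values with the trend removed.

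The receptors' partners were described from a list of 23 adaptor and signalling genes, all of which passed the minimum of reads. With IL-4, 4 of the 23 were lower past 1.5-fold and 0 higher in wild-type cells, and 4 were lower and 1 higher in knockout cells, where 12.2% and 7.32% of all genes were lower and higher in the former and 7.33% and 8.05% in the latter. Over the list the log2 ratios had a median of -0.31 in wild-type cells and -0.21 in knockout cells, against -0.02 and 0.0051 over all genes. The trend over transcript length was not removed from these IL-4 ratios, nor from those of the lists below. The adaptor Fcer1g was listed at 718 and 621 FPKM in wild-type cells and at 784 and 580 FPKM in knockout cells, log2 ratios of -0.21 and -0.43. Tyrobp, the partner of Clec5a, was at 1455 and 1177 FPKM and at 1451 and 1144 FPKM. Syk was at 110 and 80.1 FPKM in wild-type cells and at 116 and 88.6 FPKM in knockout cells, and Card9 at 25.2 and 30.3 FPKM and at 23.9 and 31.9 FPKM. Of these 4 genes none passed 1.5-fold in any of the 4 comparisons. Among the genes lower past that fold in both genotypes was the Src-family kinase gene Fgr (log2 ratios of -0.64 and -0.79). Between the genotypes 0 of the 23 genes were called without IL-4 and 0 with IL-4 by Fisher's exact test. Of all genes 1.12% were called lower and 1.08% higher without IL-4, and 0.952% and 4% with IL-4. So few calls are near these shares for a list of this size, and nothing is read from them.

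Of 15 genes that this signalling route is known to raise, 7 passed the minimum of reads. With IL-4, 4 were lower and 2 higher past 1.5-fold in either genotype, beside the same shares of all genes. In both genotypes Tnf (log2 ratios of -1.16 and -1.91), Ccl3 (-0.78 and -1.06) and Ccl4 (-1.12 and -1.18) were lower, and the chemokine gene Ccl2 (2.29 and 2.07) and the prostaglandin synthase gene Ptgs2 (0.60 and 1.72) were higher. Between the genotypes 1 of the 7 was called lower in knockout cells without IL-4, Ptgs2 at 0.1 FPKM against 0.42 FPKM in wild-type cells, on 5 and 21 reads (Fisher's exact test, adjusted p = 0.031). With IL-4, 2 were called lower, Tnf (44 and 20 reads) and Ccl2 (198 and 99 reads), and none was called higher in either pair. Their transcripts have 1638 and 806 bases, and the length trend of the treated pair was not removed for these 2 calls. Of all genes 1.12% were called lower without and 0.952% with IL-4. Of 10 genes that regulate these lectins or the IL-4 response, Tlr2, whose levels are given above, was the 1 gene lower past 1.5-fold in both genotypes. Of all genes 12.2% were lower and 7.32% higher past that fold in wild-type cells, and 7.33% and 8.05% in knockout cells. Cebpb, which encodes a C/EBP transcription factor, was among the genes higher in both (log2 ratios of 0.79 and 0.73). Between the genotypes 0 of the 10 genes were past 1.5-fold, and none was called, in either pair. Beside the shares called lower given above, 1.08% of all genes were called higher without and 4% with IL-4.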

How the data were processed

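Per the labels and the study's methods, total RNA of peritoneal macrophages was sequenced on an Illumina HiSeq instrument, reads were mapped to GRCm38 (mm10) with Bowtie and genes were quantified with RSEM; versions and the use of strand are not given in the sources used here. The authors deposited 1 table per library, with RSEM expected counts (22.2% to 22.8% not whole) and with FPKM values, which divide the counts by effective length and library total. The deposited tables also hold a transcript length in bases, as isoforms were weighted in that library. Genes not listed were set to 0. Of 16403 gene IDs, 16365 matched a RefSeq symbol of GRCm38.p6.

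Counts were rounded for all tests. Log2 ratios were taken after adding 0.1 to each FPKM, so that ratios of low genes are drawn toward 0. Intervals of ratios between 2 libraries are exact binomial intervals of the read ratio. Those of the difference of the IL-4 responses are normal approximations from the counting SE, which are rough for Clec4n with its few reads. A mean of 10 or more reads over the libraries was required, which 11664 genes had. Pairs of libraries were compared by two-sided Fisher's exact tests with Benjamini-Hochberg adjustment over these genes, and calls follow the study's thresholds (1.5-fold, false discovery rate 0.05). The difference of the IL-4 responses was tested by an exact conditional test of the reads against the library totals (for the 7 lectins the difference is given without a p), and genotype by edgeR 4.0.16 (TMM, filterByExpr, quasi-likelihood, genotype and treatment). DESeq2 1.42.0, TMM and DESeq2 scaling, pseudocounts of 0.01 and 1, other filters, a fold of 2, assumed biological variation and removal of the trend over transcript length (lowess, fraction 0.3) were alternatives. The Fisher's, conditional and additive tests were tried on simulated reads with counting error only, without variation between replicates. Removal of the length trend was not simulated. R 4.3.3, Python 3.11.15 and SciPy 1.17.1 were used.

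The genes, lists and alternatives were chosen with earlier results of these data known. Named genes were the 7 lectins, Trim24, the 5 genes most like Clec4d and Clec4e each, list genes past 1.5-fold in one direction in both pairs of a contrast, and Fcer1g, Tyrobp, Syk and Card9. Some list genes that this rule names are not reported here. Protein sequences were planned and were not used here. Of the lists of cells not described in the report, the summed FPKM over the libraries was 5.83 to 10.8 for large peritoneal macrophage genes, 4.23 to 6.52 for B cell, 1.14 to 2.49 for T cell, 0.1 to 0.32 for NK cell, 2.55 to 5.99 for mast cell, 1.06 to 2.04 for eosinophil and 16.9 to 34.2 for mesothelial and fibroblast genes. The macrophage list summed to 8282 to 14833 FPKM, the lower values being those of the knockout, where Lyz2 was low.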

Additional observations from a re-analysis of the deposited data

Results flagged for a closer look

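The IL-4 responses of 29 named genes were compared between the genotypes by the exact conditional test on reads, adjusted over 11664 genes. An adjusted p under 0.05 was used to flag genes, and 4 were flagged, each with a difference under 1.5-fold. The share of all genes under that p alone was not counted, so nothing is read from this count. Of the 4 genes, Clec4d, Clec7a and Ampd3 were named for their IL-4 responses or for a pattern over the same libraries, so their differences are a description. The log2 response of knockout minus that of wild-type cells was 0.25 for Clec4d (-2.18 in wild-type and -1.93 in knockout cells), -0.36 for Clec7a (Dectin-1; 1.34 and 0.98) and 0.43 for Ampd3 (-1.93 and -1.50). With the length trend removed these differences were 0.34, -0.34 and 0.33. Fcer1g, the adaptor named whatever its values, had a difference of -0.23 (exact conditional test, adjusted p = 1.7e-06), which was -0.09 with the length trend removed (adjusted p = 0.22). Each difference rests on 4 libraries, 1 per group, and the test measures counting error only.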

How the results depend on the processing

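The lectin genes past 1.5-fold with IL-4 numbered 4 in wild-type cells (3 to 5 under the 8 alternatives run) and 4 in knockout cells (2, Clec4e and Clec4d, at a fold of 2, otherwise 3 or 4). In the untreated genotype pair the 1 called gene, Clec4e, was called under 5 scaling and pseudocount alternatives and both other filters; 0 genes were called at a fold of 2 and with assumed coefficients of variation of 0.2 and 0.4, which by construction add error or raise the threshold. In the treated pair and for the difference of the responses the count was 0 throughout. The additive fit called 2 genes, 1 in DESeq2 and 0 without a filter on low counts; with the length trend removed it called 3, Clec4a3 being added (log2 ratio 0.31, adjusted p = 0.0033). The cause of these changes was not tested. The log2 genotype ratio of Clec4a1 without IL-4, -0.01, turned to 0.0024 by TMM, 0.0092 by DESeq2 size factors and 0.026 with the length trend removed, and the difference of the Clec5a responses, 0.05, to -0.029 with that trend removed. Over all genes, the counts past the threshold ranged with the alternatives from 776 to 3964 (2277 as reported) and from 682 to 3452 (1794) for IL-4 in wild-type and knockout cells, from 7 to 261 (257) and from 11 to 606 (577) for genotype without and with IL-4, from 99 to 333 (314) for the difference and from 24 to 624 (196) in the additive fit. Of the genes called in the treated genotype pair 19.2% were lower in knockout cells, and 29.7% with the length trend removed; of those called for the difference, 16.2% and 29.9%. Clec4n, with 4 to 35 reads, is limited by depth in every comparison. No paired analysis was possible because each group is 1 library and the labels number no replicates; the additive fit holds treatment as a term.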

Other observations

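Of 27 other genes whose symbol starts with Clec and a digit, 7 passed the minimum of reads, and 3 of these were past 1.5-fold with IL-4 in both genotypes, 1 lower and 2 higher. In wild-type cells 12.2% of all genes were lower and 7.32% higher past that fold, and in knockout cells 7.33% and 8.05%. Clec7a (Dectin-1), the β-glucan receptor, was listed at 229 FPKM in untreated and 581 FPKM in IL-4-treated wild-type cells, and at 259 and 511 FPKM in knockout cells, so that it stood below Clec4d in untreated wild-type cells and above every one of the 7 lectins with IL-4. Clec10a, a galactose-type lectin, was at 4.52 and 18.2 FPKM and at 5.22 and 17.3 FPKM. The inhibitory receptor gene Clec12a was lower with IL-4, at 34.8 and 8.18 FPKM in wild-type cells and 40.0 and 10.8 FPKM in knockout cells, log2 ratios of -2.08 and -1.88 that are close in size to those of Clec4e and Clec4d. Between the genotypes 0 of the 7 genes were called without IL-4 and 1 higher with IL-4, Clec2i (log2 ratio of 0.73, Fisher's exact test, adjusted p = 0.0025), which is named after its values were seen. The length trend of the treated pair was not removed for this call. The expected reads of Clec2i in this pair were not whole, at 73.33 in wild-type and 120.94 in knockout cells. Of all genes 4% were called higher in that pair.

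The chemokine gene Ccl2 was lower in knockout cells past 1.5-fold in both genotype pairs, at 4.51 against 2.66 FPKM without IL-4 (log2 ratio of -0.74, Fisher's exact test, adjusted p = 0.26) and at 22.5 against 11.5 FPKM with IL-4 (-0.96, adjusted p = 2.8e-07). Its transcript has 806 bases, and the length trend was not removed from these ratios.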
